A study of Mus musculus with 72 samples.

Results

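Phase II conjugation was followed here through its transferase families, the glucuronosyltransferases (Ugt1a, Ugt2a, Ugt2b and Ugt3a), the sulfotransferases (Sult) and the glutathione S-transferases (Gsta, Gstk, Gstm, Gsto, Gstp, Gstt, Gstz and the microsomal Mgst). Members were taken by symbol alone, as every gene of the liver count table that begins with one of these stems, without the pseudogenes marked -ps. The rule gave 56 of the 22823 genes in liver, namely 17 of glucuronidation, 17 of sulfation and 22 of glutathione transfer. In the table of the suprachiasmatic nucleus (SCN), the seat of the central circadian clock in the hypothalamus, it gave 21 of 15759 genes. Together these were 58 symbols, of which 19 were in both tables, and only Gstm3 and Sult2b1 were in the SCN table alone.

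RNA-seq libraries had been made from both tissues of C57BL/6 mice (C57BL/6J in the protocol), aged 8 to 12 weeks, on a diet deficient in methionine and choline (MCD) or on its isocaloric control. Mice of both diets ate freely, lived singly in a light-dark cycle for 10 days and were moved to constant darkness for the 11th, when they were killed at circadian times CT0, CT4, CT8, CT12, CT16 and CT20. Each of the 6 times held 3 mice per diet, 2 males and 1 female, so that a diet had 12 males and 6 females, or 18 libraries, per tissue. The labels give all mice the same genotype and name no agent besides the diets. The protocol text speaks of males alone, and the sex given on each sample was followed. Liver came from the left lobe and the SCN from stained brain sections by laser microdissection.

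These enzymes attach a polar group to drugs, hormones, bilirubin, bile acids and reactive lipid products, so that the product can be carried out of the cell and excreted. Glucuronosyltransferases use UDP-glucuronic acid, sulfotransferases use the activated sulfate PAPS, and glutathione transferases use the tripeptide glutathione, whose cysteine, like sulfate, can be drawn from methionine. In mouse liver several members are known to be set by sex through the pattern of growth hormone secretion, and others by the oxidative stress factor NRF2, the receptors AhR, CAR and PXR, and clock-controlled factors.

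Promoters were read first, because the factors known to act on these families bind short motifs. RefSeq windows (build GRCm38.p6) from 250 bases before to 50 bases after the transcription start were at hand for 50 of the 58 symbols, 62 windows in all. Of these, 6.45% held the antioxidant response element core TGACNNNGC on either strand, against 12.4% of all 32851 windows. The xenobiotic response element core GCGTG was in 19.4% against 32.4%, and the D-box TTATGTAA, the motif of the PAR bZIP factors, in 1.61% against 0.938%. The E-box CACGTG was in 0 of 62, against 7.15%. A match is a run of letters and not a shown binding site, and its absence says only that these letters are not in this window.

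The 4 member windows with the antioxidant core, the 1 with a D-box, and that of Gsta2, the glutathione transferase with the largest rise on MCD, read as follows, 5′ to 3′ on the strand of the gene. Capitals mark matches to these 4 motifs on either strand. The antioxidant core begins at position -121 from the transcription start in Gsta3, -129 in Gstm7, -56 in Mgst1 (on the other strand) and -42 in Gstm5, where it overlaps a xenobiotic core on the other strand.
Gsta3, chr1:21240335-21240634, plus strand: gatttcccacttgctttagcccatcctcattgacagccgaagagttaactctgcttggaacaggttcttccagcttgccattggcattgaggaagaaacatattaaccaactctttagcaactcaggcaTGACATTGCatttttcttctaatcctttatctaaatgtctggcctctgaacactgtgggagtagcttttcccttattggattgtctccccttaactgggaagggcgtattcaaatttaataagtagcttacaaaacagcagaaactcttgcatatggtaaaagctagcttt
Gstm5, chr3:107895604-107895903, plus strand: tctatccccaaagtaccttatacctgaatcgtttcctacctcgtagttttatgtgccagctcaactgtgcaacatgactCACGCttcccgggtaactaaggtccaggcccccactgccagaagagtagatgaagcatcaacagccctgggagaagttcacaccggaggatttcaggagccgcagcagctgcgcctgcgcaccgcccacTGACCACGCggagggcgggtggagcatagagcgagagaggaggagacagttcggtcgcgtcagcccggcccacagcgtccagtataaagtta
Gstm7, chr3:107931565-107931864, minus strand: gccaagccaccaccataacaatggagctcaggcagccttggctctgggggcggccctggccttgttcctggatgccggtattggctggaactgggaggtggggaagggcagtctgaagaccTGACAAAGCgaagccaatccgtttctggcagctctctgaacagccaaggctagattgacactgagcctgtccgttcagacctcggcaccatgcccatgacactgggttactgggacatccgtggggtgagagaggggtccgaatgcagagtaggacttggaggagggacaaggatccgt
Mgst1, chr6:138140277-138140576, plus strand: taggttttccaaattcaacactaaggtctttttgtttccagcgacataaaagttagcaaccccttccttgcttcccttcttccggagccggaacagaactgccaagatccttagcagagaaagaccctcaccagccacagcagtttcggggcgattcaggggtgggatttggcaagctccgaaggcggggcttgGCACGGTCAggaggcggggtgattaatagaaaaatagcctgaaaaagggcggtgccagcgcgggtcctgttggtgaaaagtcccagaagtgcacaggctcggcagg
Ugt2b1, chr5:86926454-86926753, minus strand: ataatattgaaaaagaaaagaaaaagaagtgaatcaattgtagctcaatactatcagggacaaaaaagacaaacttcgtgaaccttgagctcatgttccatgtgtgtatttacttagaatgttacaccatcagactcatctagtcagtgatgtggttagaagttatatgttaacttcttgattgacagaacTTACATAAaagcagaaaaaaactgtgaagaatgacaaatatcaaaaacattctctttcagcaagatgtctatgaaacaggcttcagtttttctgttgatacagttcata
Gsta2, chr9:78347096-78347395, minus strand: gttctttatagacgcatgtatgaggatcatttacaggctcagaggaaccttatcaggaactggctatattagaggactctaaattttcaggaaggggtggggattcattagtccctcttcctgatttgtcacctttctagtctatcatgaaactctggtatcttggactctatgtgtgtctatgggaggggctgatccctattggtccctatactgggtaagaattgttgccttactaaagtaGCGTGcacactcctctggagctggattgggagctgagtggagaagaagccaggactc
The diet values that belong to these windows differed in sign. On the log2 scale, with adjusted p from edgeR's quasi-likelihood test, Gstm5 rose (0.39 ± 0.06 SE, adjusted p = 1.93e-06), Mgst1 fell (-0.82 ± 0.09, adjusted p = 8.56e-08) and Gstm7 fell (-0.29 ± 0.07, adjusted p = 0.0025). Gsta3 did not pass the test (-0.23 ± 0.11, adjusted p = 0.0963). The D-box of Ugt2b1 begins at position -59, and the 24 h component of Ugt2b1 was not called on either diet (adjusted p = 0.654 on control and 0.837 on MCD).

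Levels are in CPM, counts put on a common library size after TMM scaling, and a gene is called where its adjusted p from edgeR's quasi-likelihood F test is under 0.05 over all 20249 liver or 15759 SCN genes tested. All 56 liver members passed the filter on low counts. Liver libraries held 52.6 to 86.7 M gene counts and SCN libraries 23.4 to 79.8 M. The deposited tables give both control males at CT8 the same column name, so they are called control CT08 a and b. In liver, a stood apart: of the 34 members called for diet in males it lay outside the other 11 control males for 24 and inside the range of the MCD males for 22. Among the MCD males, CT04 1 and CT12 2 stood apart. Each held the lowest or highest value of the 12 for 20 of the 56 members, against 4 to 10 members in the other 10. Their TMM factors were 1.28 and 1.27 in that order, against 0.986 to 1.11. Liver libraries also fell into 21 with 41.6 to 119 CPM and 15 with 414 to 925 CPM of the mitochondrial transcript mt-Nd6, and control libraries made up 8 and 10 of these. Summed markers of hepatocytes were 78496 to 118277 CPM on control and 54752 to 118977 CPM on MCD. Those of macrophages, 5 of 5 in the table, were 147 to 317 CPM on control and 187 to 324 CPM on MCD, those of liver endothelium 160.3 to 224 CPM on control and 169 to 243 CPM on MCD and those of stellate cells, 5 of 6, 58.8 to 289 CPM on control and 83.7 to 400.3 CPM on MCD. Those of erythrocytes, 4 of 4, were 120.1 to 345 CPM on control and 75.2 to 214 CPM on MCD, with medians of 191 and 102 CPM, and the macrophage medians were 179.7 and 257 CPM. The part of these cells in the diet differences was not tested, and in bulk tissue fewer cells of a type and less RNA per cell cannot be told apart. TMM factors were 0.917 ± 0.0739 on control and 1.10 ± 0.0793 on MCD (SD, n = 18 each), and scaling by library totals alone moves the median log2 diet difference of all genes from 0.02 to 0.27.

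Per length of transcript, the most abundant members in liver were the membrane-bound transferase Mgst1 with 746 CPM per kb, averaged over all 36 libraries, and Gstm1 with 726. They were followed by Gstp1 with 328 CPM per kb, by Ugt1a1, the bilirubin-conjugating enzyme, with 277, by the class alpha enzyme Gsta3 with 259 and by Ugt2b5 with 247. Sult1a1, the phenol sulfotransferase, was highest among the sulfotransferases at 216 CPM per kb. At the other end, Gsto2, Mgst2 and Sult4a1 lay under 0.1 CPM per kb. Transcript lengths came from GENCODE M21 on an older build than that of the counts, so this order is approximate. It also pools groups that differ. Mgst1 held 1931 ± 450 CPM on control and 1074 ± 178 CPM on MCD, and Gstm1 652 ± 308 and 1487 ± 222 CPM (SD, n = 18 each). Gstp1 held 782 ± 251 CPM in control males (SD, n = 12) and 86.1 ± 6.44 CPM in control females (SD, n = 6). Summed over all 56 members, the level was 11289 ± 1042 CPM in control males and 9344 ± 1304 CPM in MCD males (SD, n = 12 each). In females it was 10648 ± 791 and 9310.2 ± 717 CPM (SD, n = 6 each). These sums, like the family sums below, follow TMM scaling, with mean factors of 0.917 on control and 1.10 on MCD. They were not taken under library totals alone, so no change of the total is read from them.

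The first comparison asked how the diet changed these enzymes in liver over all times and both sexes. On MCD 34 of the 56 members were called, 12 higher and 22 lower, against 46.6% of all genes tested, of which 25.3% were higher and 21.2% lower. The median log2 difference was -0.19 for the members and 0.02 for all genes. Glucuronidation had 12 of 17 called, 2 higher and 10 lower. Sulfation had 8 of 17, 3 higher and 5 lower, and glutathione transfer 14 of 22, with 7 in each direction. Under scaling by library totals alone the split was 19 higher and 17 lower among 36 called, and the share of higher calls among all genes moved from 54.4% to 87.4%. Of the 34 members, 29 were also called under that scaling. Gstm7, Gstp3, Ugt1a6b, Ugt2b36 and Ugt2b5, which all fell under TMM, were not, and Gsto1, Gstt2, Sult1a1, Sult1d1, Sult2a5, Ugt1a9 and Ugt2b34 were called higher. Glucuronidation then had 4 higher and 7 lower, sulfation 6 and 5, and glutathione transfer 9 and 5. Without control CT08 a, 36 members were called, which included all 34. Without MCD CT04 1 and CT12 2, 35 were called, 12 higher and 23 lower, which included 33 of the 34 and not Gsta4.

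**Figure D1:**
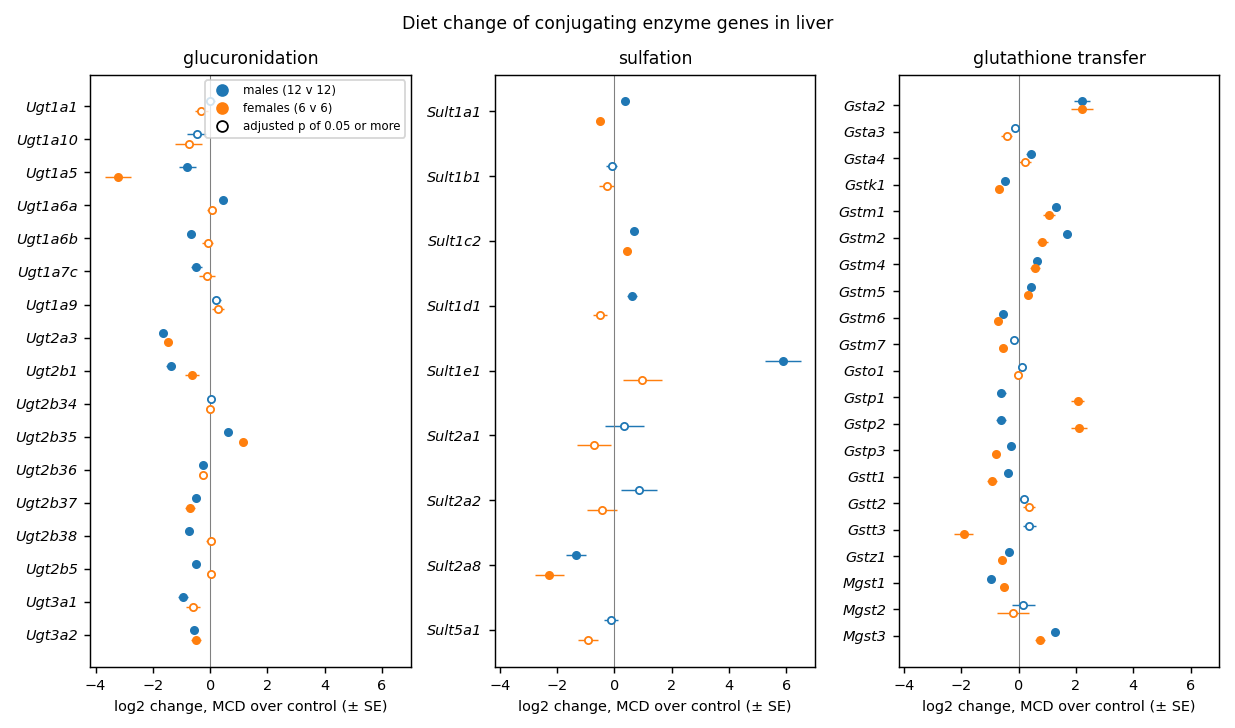
Log2 difference of MCD from control in liver for the 47 members with a mean of at least 0.1 CPM in each group of diet and sex, with males in blue, females in orange, error bars of 1 SE and open symbols for values that were not called. In 35 of the 47 the values of both sexes lie on the same side of 0 and in 12 on opposite sides, and of those 12 Gstp1, Gstp2 and Sult1a1 were called in both sexes.

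Among the glucuronosyltransferases called, most were lower on MCD under either scaling. Ugt2a3, which conjugates bile acids, ran from 132 to 320.2 CPM (median 242) on control and from 55.8 to 104 CPM (median 77.0) on MCD. It was the only member whose 18 control and 18 MCD libraries did not overlap, against 0.306% of all genes. Within males 3 members did not overlap (0.78% of all genes) and within females 24 (11%). The male count depends on control CT08 a. Without it Gsta2, Gstm1, Mgst1, Mgst3, Sult2a8, Ugt2b1, Ugt2b38, Ugt3a1 and Ugt3a2 did not overlap in males either. The share of all genes without that library was not counted. The lowest control value of Ugt2a3 was that of CT08 a (132 CPM against 229 to 320.2 CPM in the other control males). Its log2 difference was -1.59 ± 0.08 (SE), adjusted p = 4.34e-14.

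Among the Ugt2b enzymes, which act on steroids, bile acids and many drugs, 6 of 7 were called, 5 of them lower (3 of 5 under library totals). Ugt2b1 ran from 194 to 852 CPM (median 630.1) in control males and from 105 to 331 CPM (median 259) in MCD males. Control females held 208 to 246 CPM (median 226) and MCD females 138 to 156 CPM (median 145), so that the female groups did not overlap. The male groups did, through control CT08 a alone (194 CPM against 582 to 852 CPM in the other control males). The log2 difference over both sexes was -1.14 ± 0.15 (SE), adjusted p = 8.31e-07. Ugt2b5 (-0.32 ± 0.09) and Ugt2b36 (-0.25 ± 0.07) fell less, and both calls were lost under scaling by library totals.

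Ugt2b35 went the other way, from 77.4 to 238 CPM (median 149) on control to 146 to 424 CPM (median 258) on MCD, a log2 difference of 0.78 ± 0.08 (SE), adjusted p = 1.55e-08. The ranges overlapped over all libraries but not within females. Ugt2b34, one of the more abundant of the family, was not called, at 0.02 ± 0.08 (adjusted p = 0.851). Both Ugt3a members, whose human relatives use other UDP-sugars than UDP-glucuronic acid, fell, with -0.83 ± 0.14 for Ugt3a1 and -0.54 ± 0.10 for Ugt3a2. Summed over the 7 Ugt2b members, levels were 2399 ± 231 CPM in control males and 1848 ± 427 CPM in MCD males (SD, n = 12 each). The female sums were 1698 ± 203 and 1672 ± 160.2 CPM (SD, n = 6 each).

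The Ugt1a enzymes are made from a single locus with alternative first exons and shared last exons. Ugt1a5 ran from 235 to 338 CPM (median 250.5) in control females and from 19.7 to 37.6 CPM (median 29.1) in MCD females. In males it ran from 8.09 to 75.6 CPM (median 28.1) on control and from 4.21 to 31.1 CPM (median 19.8) on MCD. Control females were thus above all other groups, and every MCD female was below every control female. Its log2 difference was -1.58 ± 0.35 (SE), adjusted p = 0.000585. Ugt1a6a rose (0.31 ± 0.10, lost with summed exon bins) and Ugt1a6b fell (-0.48 ± 0.12, lost with library totals), both enzymes for planar phenols. Ugt1a1 was at -0.10 ± 0.13 and not called (adjusted p = 0.535).

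**Figure D2:**
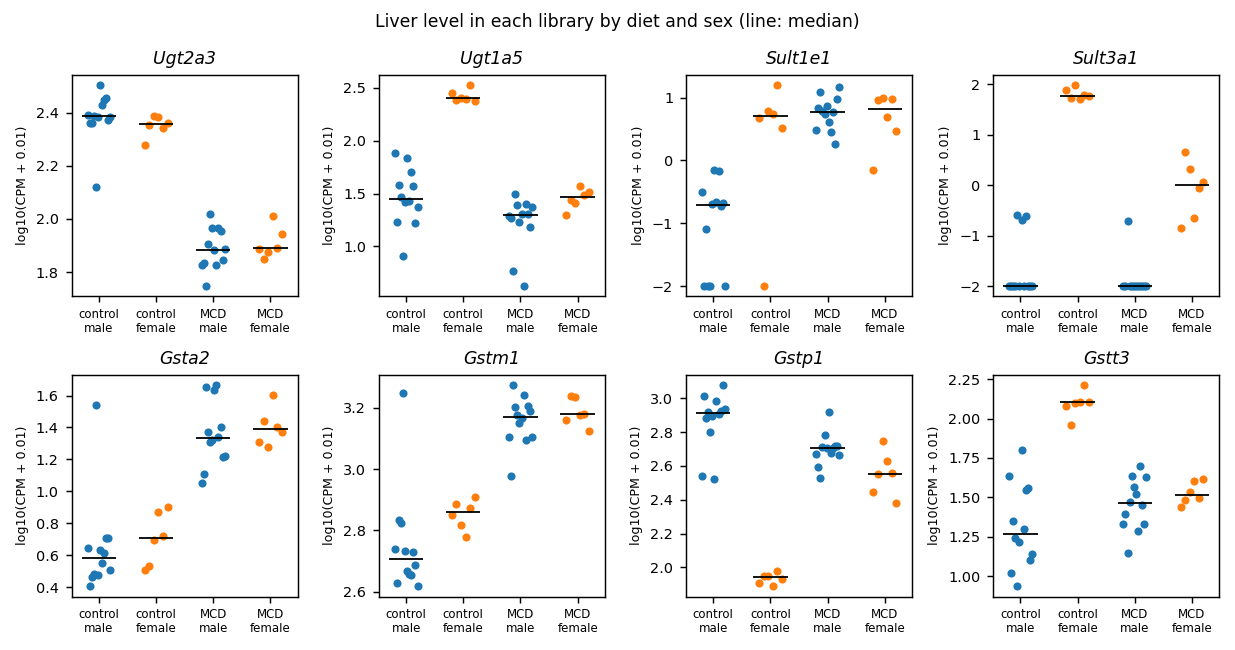
Liver level of 8 members in every library, as log10 of CPM with 0.01 added, by diet and sex, with a bar at each group's median. Ugt2a3 separates the diets in both sexes, Sult1e1 is lower in every control male than in any MCD male, Sult3a1 is high in control females alone, and 1 control male lies among the MCD males for Gsta2 and Gstm1.

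The sulfotransferases held the members with the largest changes in both directions. Sult3a1, an amine sulfotransferase known as female-specific in mouse liver, ran from 51.5 to 99.2 CPM (median 59.7) in control females and from 0.135 to 4.66 CPM (median 0.996) in MCD females. In males all 24 libraries were at or below 0.246 CPM. The female groups did not overlap, and the log2 difference in females was -6.35 ± 0.50 (SE), adjusted p = 1.18e-08. Its neighbour Sult3a2 ran from 1.36 to 3.25 CPM (median 2.26) in control females to 0.0737 to 1.20 CPM (median 0.385) in MCD females (-2.86 ± 0.36, adjusted p = 0.0151) and had 0 counts in all 24 males. Leaving out the only female of a time leaves such members there with males at or near 0. The Sult3a1 call over both sexes was lost without the control female of CT0, CT4 or CT20 (log2 values of -5.05 to -4.94). In females alone it was lost without these or the MCD female of CT4 (-5.82 to -5.42), and the Sult3a2 call in females was lost without any 1 of the 12 females (-3.22 to -2.40). That call was also lost with DESeq2 (-2.67, adjusted p = 0.214) and with the mt-Nd6 class as a term (-2.93, adjusted p = 1). Sult4a1, a nervous system sulfotransferase, was at 0.411 ± 0.153 CPM in control females (SD, n = 6). It had 0 counts in 10 of 12 control males, 10 of 12 MCD males and 5 of 6 MCD females. It reached the minimum of 10 counts in 7 control and 0 MCD libraries, so it passed the filter through control alone and had to be lower on MCD. It is counted among the 22 lower members, its call was lost without the control female of CT0, CT4, CT8 or CT12 and with DESeq2 (adjusted p = 0.425), and no change is read from it.

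Sult1e1 inactivates estrogens by sulfation. It ran from 0 to 0.693 CPM (median 0.186) in control males and from 1.82 to 14.98 CPM (median 5.90) in MCD males, with no overlap and a log2 difference of 5.87 ± 0.62 (SE), adjusted p = 1.13e-07. Females held 0 to 16.1 CPM (median 5.10) on control and 0.688 to 9.94 CPM (median 6.94) on MCD, where 1 control female had no counts, ranges overlapped and the difference of 0.97 ± 0.68 was not called (adjusted p = 0.329). MCD males thus lay within the range of the control females.

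The Sult2a enzymes sulfate hydroxysteroids and bile acids. Sult2a8 was the 1 sulfotransferase called higher in control males, a call lost with summed exon bins (-1.53, adjusted p = 0.0804) and in 5 fits with 1 library left out. It ran from 133 to 885 CPM (median 759) in control males and from 24.0 to 519.6 CPM (median 317) in MCD males. The male ranges overlapped through control CT08 a alone, with 133 CPM against 616 to 885 CPM in the other control males. The 2 lowest MCD males were CT12 2 and CT04 1, with 24.0 and 48.5 CPM against 185 to 519.6 CPM in the other 10. Female values were 166 to 308 CPM (median 219) on control and 30.1 to 67.7 CPM (median 46.3) on MCD, without overlap. It fell by 1.64 ± 0.29 on the log2 scale over both sexes (adjusted p = 5.52e-05), and was at -1.50 ± 0.23 without those 2 males. Sult2a7 fell as well (-2.22 ± 0.65), at a control level of 2.87 ± 1.88 CPM in females (SD, n = 6). Sult2a3 rose (1.71 ± 0.42, adjusted p = 0.0015), on female values of 3.66 to 37.6 CPM (median 14.1) on control and 21.4 to 61.8 CPM (median 36.1) on MCD. In females alone it was not called (1.54 ± 0.57, adjusted p = 0.0688). There it was called with limma (1.44 ± 0.52, adjusted p = 0.0444), library totals (1.80 ± 0.59, adjusted p = 0.0307) and summed exon bins (1.51 ± 0.465, adjusted p = 0.021). The call over both sexes was lost without the MCD female of CT4, CT8, CT12 or CT20 (0.95 to 1.13) and with DESeq2 (1.96, adjusted p = 0.149). The 2 abundant female members, Sult2a1 (-0.72 ± 0.59 in females) and Sult2a2 (-0.43 ± 0.52), were not called there (adjusted p = 0.419 and 0.607). Sult1c2 rose by 0.59 ± 0.09, and Sult1b1, a thyroid hormone and phenol sulfotransferase, was not called (-0.15 ± 0.16, adjusted p = 0.462).

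Among the glutathione transferases the cytosolic class mu was called in 6 of 6 members, 4 higher and 2 lower. Gstm1, the most abundant of them, ran from 414 to 1777 CPM (median 576) on control and from 948 to 1884 CPM (median 1502) on MCD. The highest control value was CT08 a, with 1777 CPM against 414 to 681 CPM in the other control males. The log2 difference was 1.23 ± 0.12 (SE), adjusted p = 6.1e-09, and 1.36 without that library. Gstm2 ran from 16.8 to 65.3 CPM (median 29.1) in control males and from 70.1 to 152 CPM (median 91.8) in MCD males. Here the male groups did not overlap, and neither did the female ones, with 50.9 to 74.3 CPM (median 56.9) on control and 93.0 to 129 CPM (median 105) on MCD. Gstm4 (0.61 ± 0.10) and Gstm5 (0.39 ± 0.06) rose less. Gstm6 (-0.61 ± 0.07) and Gstm7 (-0.29 ± 0.07) fell, the latter not called under library totals, so that the class did not move as 1 block.

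Class alpha enzymes conjugate products of lipid peroxidation. Gsta2 ran from 2.53 to 35.0 CPM (median 4.20) on control and from 11.3 to 46.4 CPM (median 22.8) on MCD. Control CT08 a alone held the highest control value, with 35.0 CPM against 2.53 to 5.06 CPM in the other control males, so that 17 of 18 control libraries lay below every MCD library. The log2 difference was 2.20 ± 0.22 (SE), adjusted p = 1.54e-08, and 2.53 without CT08 a. Gsta4, the enzyme for reactive hydroxyalkenals, rose by 0.36 ± 0.12, a call lost with summed exon bins and without MCD CT04 1 and CT12 2 (0.24 ± 0.12, adjusted p = 0.101). Gsta3, far more abundant, was not called, but was without control CT08 a (-0.29 ± 0.10, adjusted p = 0.0168). It was also called with the replicate number as a block (-0.33 ± 0.10, adjusted p = 0.0109). The block fit leaves out control CT08 a and b, which carry no number, so both fits lack the same library. Summed class alpha was 1244 ± 309 CPM on control and 1097 ± 322 CPM on MCD (SD, n = 18 each).

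The microsomal members moved apart. Mgst1 ran from 1121 to 2434 CPM (median 2085) on control and from 751 to 1431 CPM (median 1061) on MCD (-0.82 ± 0.09 (SE), adjusted p = 8.56e-08), with overlap over all libraries but none within females. Mgst3 ran from 4.72 to 20.5 CPM (median 7.10) on control and from 11.3 to 32.7 CPM (median 17.4) on MCD (1.08 ± 0.12 (SE), adjusted p = 3.55e-08). Single-gene classes fell by smaller steps, with -0.55 ± 0.06 for the mitochondrial and peroxisomal Gstk1 and -0.42 ± 0.08 for Gstz1, which acts in tyrosine breakdown as maleylacetoacetate isomerase. Gstt1 of class theta fell by 0.56 ± 0.12. Gsto1, a reductase-like enzyme of class omega, was not called (0.06 ± 0.05, adjusted p = 0.349).

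Other members called for diet were Ugt2b37 (-0.56 ± 0.10), Ugt2b38 (-0.50 ± 0.12) and the class pi member Gstp3 (-0.46 ± 0.09), all lower. The 22 members that were not called ran from -0.56 for Ugt1a10 to 1.13 for Sult2a6. The fall of Ugt1a10 was called with DESeq2, limma and the mt-Nd6 class as a term (-0.57 ± 0.24, adjusted p = 0.0401 in DESeq2). They included the other members of classes omega and pi (Gsto2 -0.00 ± 0.45, Gstp1 0.23 ± 0.30, Gstp2 0.23 ± 0.32) and 2 of 3 of class theta (Gstt2 0.24 ± 0.12, Gstt3 -0.36 ± 0.30). Mgst2 (0.03 ± 0.31) and Gsto2 lay near 0.1 CPM. Among sulfotransferases Sult1d1 (0.24 ± 0.17), Sult2a4 (0.15 ± 0.29), Sult2a5 (0.65 ± 0.30) and Sult5a1 (-0.38 ± 0.21) were not called either. With summed exon bins Sult2a5 was called higher (1.54 ± 0.36, adjusted p = 0.00124), and so in females alone (1.43 ± 0.38, adjusted p = 0.00731).

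Diet was then compared within each sex, in a model that also held the interaction of sex and diet. In males 34 members were called, 13 higher and 21 lower, against 39.6% of all genes, 22.2% higher and 17.4% lower. In females 29 were called, 10 higher and 19 lower, against 24.8% of all genes, 12.4% in each direction. Both sexes shared 24 called members, and 21 of these had the same direction, 8 higher and 13 lower. Under library totals alone the male split was 18 higher and 12 lower and the female split 12 and 16, and among the male calls lost were those of Gstp1 and Gstp2. The female calls of Sult1a1, Ugt2b1 and Ugt3a2 were lost there too. Without control CT08 a, 33 members were called in males and 31 in females, where Sult5a1 and Ugt3a1 were added, and with the mt-Nd6 class as a term 33 and 25. Without MCD CT04 1 and CT12 2 they were 31 and 34, and the male calls of Gsta4, Gstt1, Ugt1a5 and Ugt2b36 were lost.

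The difference of the diet effect between the sexes was itself called for 8 members, 4 of them with a more positive value in females, against 1.77% of all genes, 0.914% more positive and 0.859% more negative. Gstp1, a class pi enzyme known as male-biased in mouse liver, had the smallest p. It ran from 332 to 1198 CPM (median 815) in control males and from 338 to 829 CPM (median 505) in MCD males. Control females held 77.2 to 94.8 CPM (median 87.5) and MCD females 239 to 561 CPM (median 358). Female groups did not overlap, and MCD females reached into the male range. Its log2 diet difference was 2.06 ± 0.23 in females and -0.61 ± 0.16 in males, which differed by 2.67 ± 0.28 (SE), adjusted p = 6.65e-06.

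Gstt3, of class theta, changed the other way. Control females ran from 91.4 to 164 CPM (median 127) and MCD females from 27.5 to 41.1 CPM (median 32.7), while males ran from 8.58 to 63.2 CPM (median 18.6) on control and from 14.01 to 50.0 CPM (median 28.9) on MCD. Every control female lay above every library of the other 3 groups. Diet effects were -1.92 ± 0.34 in females and 0.38 ± 0.23 in males, with a difference of -2.30 ± 0.41 (SE), adjusted p = 0.00282. Gstt3 overlaps another gene on the same strand in the annotation, so its reads cannot be told apart from that gene's with certainty.

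Sult1e1 (-4.90 ± 0.89, adjusted p = 0.00336) and Ugt1a5 (-2.42 ± 0.52, adjusted p = 0.0133) had more negative values in females, through a rise in males for the first and a deeper fall in females for the second. Sult1a1 rose in males (0.37 ± 0.10) and fell in females (-0.50 ± 0.14, not called under library totals), a difference of -0.87 ± 0.17 (SE), adjusted p = 0.00446. Over both sexes Sult1a1 was at 0.08 ± 0.11 and not called (adjusted p = 0.603). Gstp2 mirrored Gstp1 in the gene table (2.73 ± 0.34, adjusted p = 4.77e-05), which is taken up again with the exon bins. Ugt2b35 (0.54 ± 0.13, adjusted p = 0.0345) and Ugt2b38 (0.77 ± 0.20, adjusted p = 0.0489) were called near the threshold, and lost the call in 13 and 26 of 36 fits with 1 library left out. Both calls were lost with the replicate number as a block (adjusted p = 0.0767 and 0.0714), and that of Ugt2b38 also without a filter on low counts. Without control CT08 a the 8 members became 11, with Gstm2, Mgst1 and Ugt2b1 added. Without MCD CT04 1 and CT12 2 they became 10, with Sult1d1 and Sult2a7 added.

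The sexes were compared on each diet in the same model, which shares its libraries with the comparisons of diet. On control 31 of 56 members differed, 22 higher in females and 9 higher in males, against 9.87% of all genes, 5.36% higher in females and 4.51% in males. On MCD 11 members differed, 10 higher in females and 1 in males, against 2.23% of all genes, 1.23% and 1% in the same order. All 11 were among the 31. Without MCD CT04 1 and CT12 2, 15 were called on MCD, 11 higher in females and 4 in males, and of the added Gsta4, Sult2a7, Sult5a1 and Ugt2b1 neither Sult2a7 nor Sult5a1 was among the 31. DESeq2 called 12 on MCD, 9 and 3. Without control CT08 a, 32 were called on control, with Gstm1 added (0.48 ± 0.09, adjusted p = 0.000718), and 13 on MCD, with Gsta4 and Ugt2b1. In 29 of the 31 the fitted sex difference was smaller on MCD, which is a description since the 31 were chosen by their control values. The members Sult2a3, Sult2a4, Sult2a5, Sult2a6, Sult3a2 and Sult4a1 passed the filter on low counts through the female libraries only and had to differ. For Sult4a1 this holds on control alone, since on MCD it was at -0.61 and not called. Without these 6, counts were 25 of 50 on control and 6 of 50 on MCD. Where a group held no counts, the fitted log2 value depends on the prior count and is no bound.

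**Figure D3:**
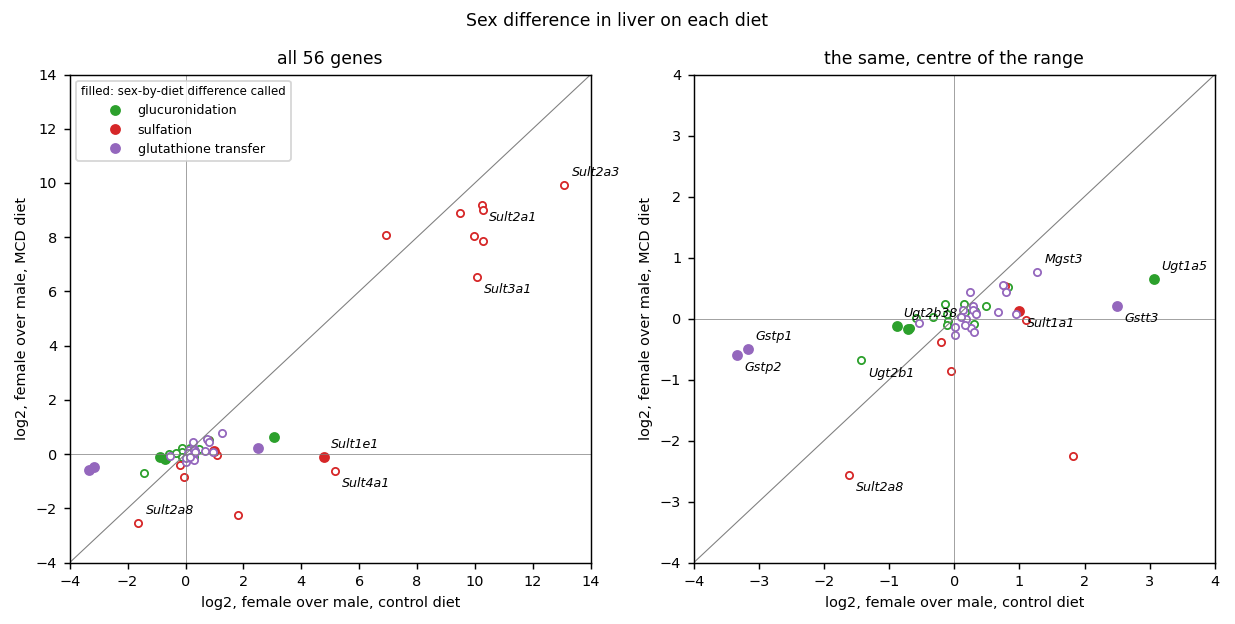
Fitted log2 difference of females from males on control (horizontal axis) and on MCD (vertical axis) for all 56 members and, enlarged, for those near the centre. Filled points are the 8 members with a called sex-by-diet difference, and 29 of the 31 members called on control lie nearer to 0 on the vertical than on the horizontal axis.

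Sulfotransferases held the largest fitted sex differences, with 14 of 17 called on control. Of these, 6 had passed the filter through females only, and without them 8 of 11 were called. Sult2a1 ran from 113 to 632 CPM (median 369) in control females and from 0 to 1.24 CPM (median 0.0451) in control males. On MCD the values were 138 to 279 CPM (median 224) in females and 0 to 1.02 CPM (median 0.259) in males, again without overlap. Sult2a2 held 159 to 404 CPM (median 255) in control females and at most 0.796 CPM in control males. Sult2a3 had 0 counts in all 12 control males and 5964 in the 6 control females, so that it was at least 3790.2-fold higher in females against a floor of 3 counts over the group. On the same floor Sult3a2 was at least 536-fold higher on control and at least 127-fold on MCD. Sult2a3 and Sult3a2 both passed the filter through females only, so these folds describe levels and are no test of sex. Among the 50 members that did not pass through females alone, 10 did not overlap between the sexes on control and 2 on MCD, Sult2a1 and Sult2a2, against 1.74% and 0.479% of all genes.

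Other sex differences were called on control and not on MCD. Gstp1 was lower in control females (-3.16 ± 0.23 (SE), adjusted p = 1.85e-10) and -0.49 ± 0.20 on MCD (adjusted p = 0.258). Gstt3 was higher in control females (2.50 ± 0.27 (SE), adjusted p = 4.99e-07) and 0.21 ± 0.28 on MCD (adjusted p = 0.865). Sult1a1 and Sult1d1, a catecholamine sulfotransferase, were higher in control females by 1.00 ± 0.12 and 1.09 ± 0.20. Ugt1a1 was higher in control females too (0.82 ± 0.19), and Ugt2b1 lower (-1.43 ± 0.21), with MCD values of 0.51 ± 0.19 (adjusted p = 0.19) and -0.68 ± 0.20 (adjusted p = 0.084). The MCD difference of Ugt2b1 was called with DESeq2, library totals, and without MCD CT04 1 and CT12 2 (the last -0.86 ± 0.17, adjusted p = 0.00347). It was also called without control CT08 a and with the replicate block, which leaves that library out too. Of these 6, the sex-by-diet test called Gstp1, Gstt3 and Sult1a1, and for the other 3 a change of the sex difference was not called over all libraries (Sult1d1 -1.12 ± 0.30, adjusted p = 0.0527). That of Sult1d1 was called with DESeq2, limma, library totals, a minimum count of 50, and without MCD CT04 1 and CT12 2 (the last -1.28 ± 0.27, adjusted p = 0.011). That of Ugt2b1 was called without control CT08 a (0.88 ± 0.22, adjusted p = 0.0255). The replicate block, which lacks that library too, also called it (0.91 ± 0.23, adjusted p = 0.0493).

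A second measure of the same libraries was then set beside the gene counts, since near-identical members can lose or share reads. For each gene the deposited exon bins were summed in the 34 liver libraries with complete files. For 44 members the sum was 50.4% to 175% of the gene count, and for 12 it was 1.05% to 34.1%, namely all 7 Ugt1a members, Gstp2, Ugt2b37, Ugt2b38, Sult2a4 and Sult2a6. Of the 31-base stretches of their transcripts, Gstp2 shares 54.8% with Gstp1 and Ugt2b38 44.1% with Ugt2b5.

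Gstp1 gave much the same values from its bins as from the gene table, 2.02 ± 0.19 in females and -0.62 ± 0.14 in males. Gstp2 did not: its bins gave 1.78 ± 0.55 in females (adjusted p = 0.0211) and 1.10 ± 0.44 in males (adjusted p = 0.0604), against -0.62 ± 0.19 in males from the gene table. Its sex-by-diet difference was then 0.68 ± 0.71 (adjusted p = 0.813). Values of Gstp2 in the gene table are therefore uncertain as its own.

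Ugt2b38 went from a small to a large difference. Its bins held 11.8 ± 5.98 CPM in control males (SD, n = 10), 0.728 ± 0.476 in control females (n = 6), 1.05 ± 0.620 in MCD males (n = 12) and 0.456 ± 0.222 in MCD females (n = 6). The control male mean thus stood above those of the other 3 groups. The diet difference in males was -3.75 ± 0.35 (SE), adjusted p = 9.44e-08, and -0.76 ± 0.12 from the gene table. On control the sex difference was -4.38 ± 0.51 from bins and -0.89 ± 0.15 from the table. Ugt2b37 was higher in control females from its bins (2.38 ± 0.29 (SE), adjusted p = 2.84e-06) and not called in the table (0.32 ± 0.15, adjusted p = 0.197). Bins also called a rise of Ugt1a9 on MCD (0.43 ± 0.12) and of Ugt1a7c (0.64 ± 0.20, against -0.37 ± 0.15 in the table). In the table Ugt1a7c was called lower with DESeq2, limma, a minimum count of 50, and without MCD CT04 1 and CT12 2. It was also called lower without control CT08 a and with the replicate block, which leaves that library out too. This comparison of measures was chosen after the values were seen.

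Exon usage, the share of single bins within a gene, differed by diet for 4 of the 49 members tested, against 3.79% of all genes (diffSpliceDGE, gene-level adjusted p). Ugt1a6a had the smallest adjusted p (1.15e-07), through its bin 4, at 0.269 ± 0.149 CPM on control (SD, n = 16) and 0.720 ± 0.116 on MCD (SD, n = 18). In Mgst1 (adjusted p = 7.73e-05) bin 10 was lower relative to the gene by 0.592 on the log2 scale, at 1.85 ± 0.669 and 0.676 ± 0.159 CPM, while bin 15 of the same gene held 594 ± 127 CPM on control. In Ugt2b38 (adjusted p = 0.000574) bins 1 to 4 were lower and bin 6 higher than the rest. In Gstp2 (adjusted p = 0.00994) bin 14 was higher, at 0.382 ± 0.591 CPM on MCD. Without replicates 2, Gstp2 and Ugt2b38 lost their calls, without replicates 1 Mgst1, and without replicates 3 Gstp2, while Ugt1a6a was called in each. Under the gene-level F test in place of the Simes p, Mgst1 was not called (adjusted p = 0.113). Without control CT08 1, 6 members were called. The exon files number both control males at CT8, and CT08 1 has the pattern of a. Its summed bins of Gsta2 were 53.9 CPM against 3.77 CPM in CT08 2, where the gene table gave 35.0 CPM in a and 2.99 CPM in b.

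Changes over the day were tested next. A 24 h component was called in liver for 8 of 56 members on control, close to the 17.8% of all genes, and for 7 on MCD, against 28.2%. Without MCD CT04 1 and CT12 2 the control count was 9, with Ugt2b34 added, and the MCD count 12, with Ugt2b5, Ugt2b34, Ugt2b36, Ugt2b37 and Ugt2b38. Without control CT08 a both counts were 8, with Gsta2 added on each diet (adjusted p = 0.0475 on control and 0.00206 on MCD). The replicate block, which leaves that library out too, also called Gsta2 on MCD. In the fit with all libraries the 7 were all among the 8, and Gstm6 was called on control only. A difference of the component between diets was called for 0 members in edgeR (4 at an unadjusted p under 0.05) and for 1, Gstt2, in DESeq2, against 4.87% of all genes.

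Gstt2, of class theta, had the widest fitted peak-to-trough range of the members called. On control its mean was lowest at CT0, 17.8 ± 4.27 CPM, and highest at CT8, 49.7 ± 10.3 CPM (SD, n = 3 each). On MCD it was 16.1 ± 4.72 CPM at CT20 and 69.6 ± 11.9 CPM at CT8. The fitted range was 1.64 on the log2 scale with a peak at CT10.0 on control (adjusted p = 0.000171). On MCD it was 2.29 with a peak at CT7.8 (adjusted p = 1.48e-06), and the difference between diets was not called (adjusted p = 0.0691).

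Of the other 7 members called on control, 5 peaked in the circadian day, up to CT8.0, and 2 in the night. On control, Gstm7 peaked at CT2.0 with a range of 0.51, Gstm4 at CT3.9 with 0.97, Gstm6 at CT4.8 with 0.52, Ugt2b35 at CT6.0 with 0.80 and Sult1c2 at CT8.0 with 0.81. Gsta3 stood opposite, at CT18.1 with 0.90, from 834 ± 337 CPM at CT8 to 1525 ± 163 CPM at CT20 (SD, n = 3 each), and Gsto1 at CT13.7 with 0.34. On MCD the peaks were at CT23.9 for Gstm7, CT2.4 for Ugt2b35, CT4.0 for Sult1c2, CT5.5 for Gstm4, CT11.7 for Gsto1 and CT15.03 for Gsta3. The MCD call of Sult1c2 was lost in 4 fits with 1 library left out and with summed exon bins (adjusted p = 0.0596). The control calls of Gstm7, Gstm6 and Gsto1 were lost in 19, 10 and 8 fits with 1 library left out. That of Gstm6 was lost without control CT08 a, that of Gstm7 without a filter on low counts and with summed exon bins, and that of Gsto1 with library totals (adjusted p = 0.243), with the mt-Nd6 class as a term and with summed exon bins. The fit with the replicate number as a block also drops control CT08 a and b, which leaves only the female at control CT8. In it 3 of these members were called on control, namely Gstt2, Gstm4 and Gsto1.

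**Figure D4:**
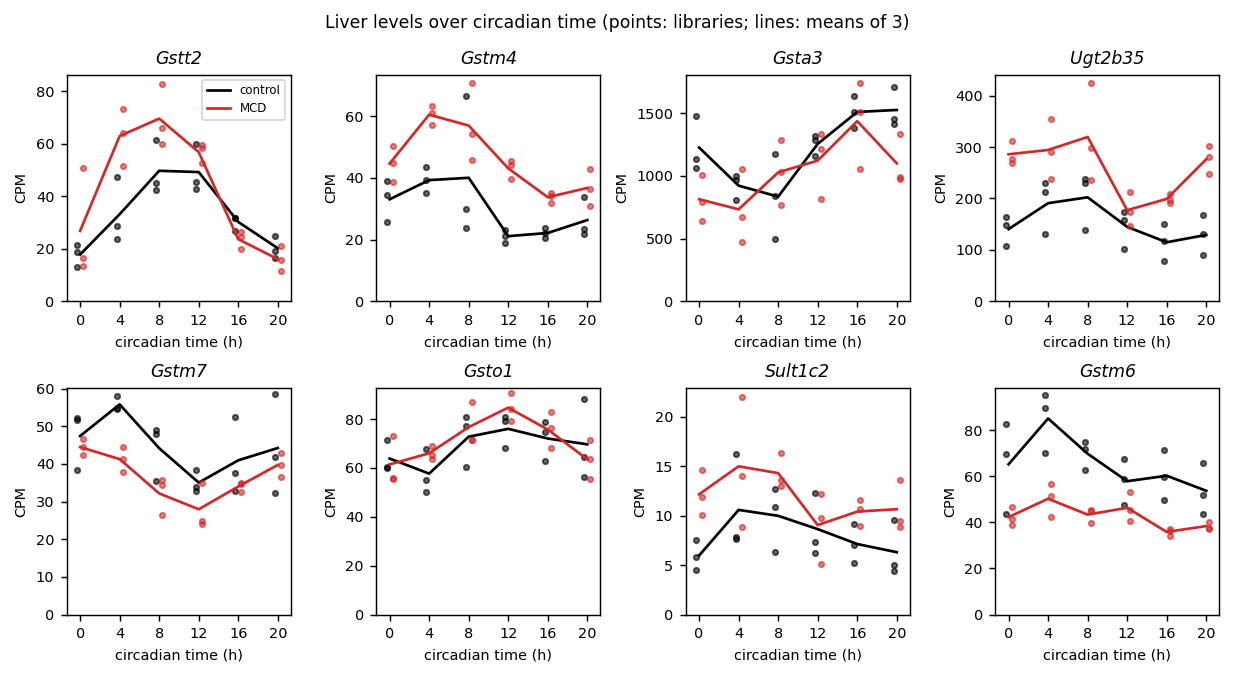
Liver level in CPM of the 8 members with a 24 h component called on control, by circadian time, with each library as a point and the mean of each diet as a line. Gstt2 rises from CT0 to CT8 on both diets, the MCD means of Gstm4, Ugt2b35 and Sult1c2 lie above those of control at all 6 times, and those of Gstm6 below.

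In the SCN the glutathione transferases made up 18 of the 21 members and no glucuronosyltransferase was in the table. All 6 SCN markers were present there, with sums of 1629.5 to 3178 CPM on control and 1724 to 4159.6 CPM on MCD. Erythrocyte markers, 4 of 4, had sums of 76.2 to 1508 CPM on control and 43.4 to 392 CPM on MCD, with medians of 229 and 116 CPM, and their part in the SCN values was not tested. By CPM, Gstm1 was highest with 248, then the brain sulfotransferase Sult4a1 with 204, Gstm5 with 162, Gstm7 with 122, Gstp1 with 111 and Gsta4 with 62.0. Sult4a1, a neuronal member with no firmly known substrate, thus belonged to the highest members in SCN and the lowest in liver.

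Diet changed 1 SCN member, Sult1a1, against 0.0635% of all genes, 0.0381% higher and 0.0254% lower, and 4 members had an unadjusted p under 0.05. It ran from 3.31 to 23.0 CPM (median 7.003) on control and from 7.27 to 20.1 CPM (median 12.6) on MCD (n = 18 each). The ranges overlapped, and the highest value of all was a control library. The log2 difference was 0.80 ± 0.13 (SE), adjusted p = 0.00747. With the replicate number as a block, a fit that leaves out control CT08 a and b too, 0 members were called. In the same 18 libraries per diet Gstm1, which rose in liver, was at 0.19 ± 0.05 (adjusted p = 0.325). Gstp1 was at -0.04 ± 0.05 (adjusted p = 1).

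A 24 h component averaged over both diets was called for 5 SCN members, against 34.4% of all genes. Gstm7 had the smallest adjusted p (3.74e-10), with a range of 0.88 and a peak at CT23.7. Its control means fell from 161 ± 11.7 CPM at CT0 to 89.0 ± 10.9 CPM at CT12, and its MCD means from 168 ± 14.95 to 78.7 ± 6.84 CPM (SD, n = 3 each). Gstm6 (0.53, CT21.7), Mgst3 (0.66, CT22.3) and Gstm5 (0.23, CT21.3) peaked at the end of the circadian night, and Sult1a1 (0.94) at CT17.3. Gstm7 and Gstm6 were thus called on the control diet in liver and over both diets in SCN.

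**Figure D5:**
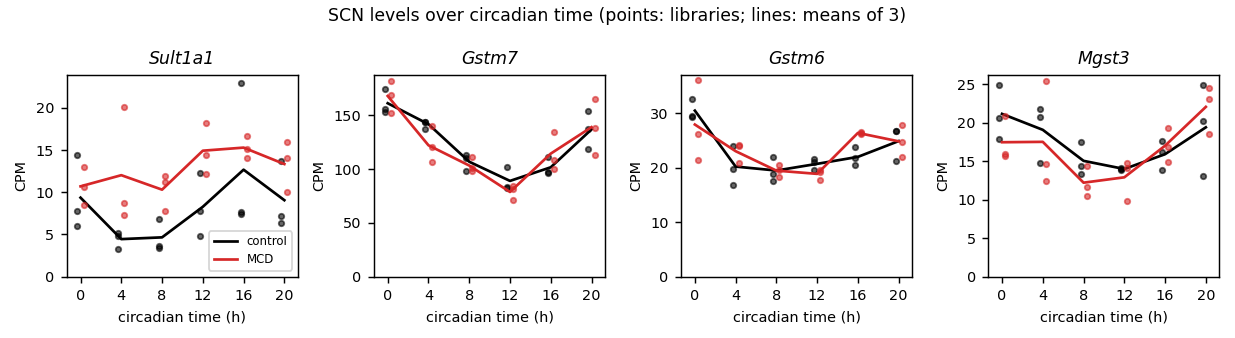
SCN level in CPM of 4 members by circadian time, with each library as a point and the mean of each diet as a line. Gstm7 falls from CT0 to CT12 on both diets, and the MCD mean of Sult1a1 lies above the control mean at all 6 times.

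The cofactor and regulator genes around these families were read from the same liver fit, in which 46.6% of all genes were called, 25.3% higher and 21.2% lower. Of 5 genes that supply or recycle glucuronate, 3 were higher on MCD and none lower: Ugdh, the UDP-glucose dehydrogenase, by 0.87, the transporter Slc35d1 by 0.54 and the glucuronidase Gusb by 0.33. With 3 of 5 called, the list was near the 46.6% of all genes. Of 7 genes tested around PAPS, 2 were higher and 4 lower, with the PAPS synthase Papss2 at -0.74 (adjusted p = 0.000107). Papss2 also had a called sex-by-diet difference of -1.04 (adjusted p = 0.00866). Of 11 genes of glutathione supply, 6 were higher and 2 lower, among them the cystine carrier Slc7a11 (4.83), the synthetase Gss (1.03) and the ligase subunit Gclc (0.74), while the other subunit, Gclm, was at 0.10 (adjusted p = 0.145).

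Of genes outside these families that NRF2 is known to drive, a list of 6 chosen with earlier results known was higher in 6 of 6, against 25.3% of all genes, from 0.31 for Txnrd1 to 2.83 for Cbr3, with Nqo1 at 1.23. That choice makes the count a description and no test. Gclm, another such gene, is in the list of glutathione supply and was not called. Of 11 receptors and factors 5 were called, about the share of all genes (46.6%), among them Ahr at 0.64, the reductase Por at 0.51 and Nfe2l2, which encodes NRF2, at 0.20. Nr1i2, the receptor PXR, and Nr1i3, the receptor CAR, were not called (adjusted p = 0.311 and 0.128). In a list of 10 sex-biased genes and their regulators, 4 were higher and 4 lower, against 25.3% and 21.2% of all genes. The sex-by-diet difference was called for 5 of the 10, against 1.77% of all genes, among them Mup20 (4.18), Cux2 (-3.63), Cyp2b9 (-5.56) and Trim24 (-1.19). This list too was chosen with earlier results known, so its counts are no test. Scaled by library totals, the falls of Bpnt1, Suox, Papss1, Cdo1, Cbs and Tef lost their calls.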

How the data were processed

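Liver and SCN of mice on MCD or control diet were profiled by RNA-seq. The authors deposited whole-number gene counts, not normalized, in 1 table per tissue and counts per exon bin in 1 file per library, per the file headers. The submitters' processing notes name Trimmomatic, HISAT2, StringTie, DESeq2 and the build GRCm39, without roles or versions, and per the labels' protocols the kit was stranded. Both control males at CT8 share a column name, and the liver exon files of control CT00 1 and 2 end early and were left out.

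Counts were tested with edgeR 4.0.16 (R 4.3.3): TMM, filter with a minimum count of 10 (20249 liver and 15759 SCN genes), robust quasi-likelihood F test, Benjamini-Hochberg adjustment over all genes tested, threshold 0.05. Each tissue had its own model, with a term for each of 12 diet and time groups and for sex, and a second model added the interaction of sex and diet. Rhythm was tested as a 24 h harmonic (cosine plus sine) of the time means, and its range the fitted peak-to-trough difference. Errors of log2 values are standard errors. Exon usage was tested with diffSpliceDGE, adjusted for time and sex, by the Simes p of each gene. Scripts were tested on simulated data.

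Libraries held 52.6 to 86.7 M counts in liver and 23.4 to 79.8 M in SCN, and no pair of replicates agreed within sampling noise. Lengths and shared 31-base stretches came from GENCODE M21 (GRCm38). Of the 56 liver members, 8 overlap another gene on the same strand there and 10 on the opposite strand, so their counts are uncertain, as are those of near-identical members.

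Members and lists were chosen with earlier results of these data known, and some listed genes are not reported here. Named members were, per comparison, up to 10 called rises and 10 falls of at least 1 CPM, all called sex-by-diet differences, up to 8 called rhythms, for SCN the 6 highest levels and up to 6 calls, for exon usage up to 6 calls, the highest member of each subfamily, and Gstp1, Sult1e1 and Sult3a1; others named to account for members were chosen after their values were seen. Alternatives were DESeq2 1.42.0, limma 3.58.1 with a prior count of 2, library totals, RLE size factors, no filter, a minimum count of 50, the replicate number as a block, the mt-Nd6 class as a term, each library left out, and, chosen after seeing the data, control CT08 a left out for the sex difference on MCD, MCD CT04 1 and CT12 2 left out together, and summed exon bins. For gene counts of both tissues the block fit leaves out control CT08 a and b, which carry no replicate number.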

Additional observations from a re-analysis of the deposited data

Results flagged for a closer look

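In 4 of 87 groups of 6 females tested, each a member on 1 diet, 1 control female stood far from the other 5. Chance gives this in about 1 in 20 groups, and the 6 females of a diet are from 6 circadian times, so that time is part of their spread. The control 24 h component of Gstm6 and Gstm7 was called. At CT12 the control female held 47.4 CPM of Gstm6 against 62.8 to 71.5 CPM in the others, and 32.9 CPM of Gstm7 against 49.0 to 58.5 CPM. At CT8 the control female held 11.8 CPM of Gstp2 against 23.0 to 26.8 CPM, and 6.53 CPM of Sult2a7 against 1.49 to 2.94 CPM.

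For 8 members the diet effect differed between the sexes by the edgeR test of that difference. Values, as the log2 diet effect in females minus that in males, were 2.67 for Gstp1, 2.73 for Gstp2, 0.54 for Ugt2b35 and 0.77 for Ugt2b38. They were -2.30 for Gstt3, -4.90 for Sult1e1, -0.87 for Sult1a1 and -2.42 for Ugt1a5. Each sex-by-diet value rests on 6 females per diet, 1 at each time.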

How the results depend on the processing

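Counts of called members stayed within 1.5 times the reported ones in all fits but those named here. The control rhythm fell from 8 to 3 members with the replicate number as a block, a fit that also drops control CT08 a and b. It ran from 5 to 12 with 1 library left out. The MCD rhythm went from 7 members to 12 without MCD CT04 1 and CT12 2. The rhythm difference went from 0 members to 1 with DESeq2 and ran from 0 to 2 with 1 library left out. The SCN diet effect went from 1 member to 0 with the replicate block, and exon usage from 4 to 2 with replicates 2 left out (2 to 4 over all 3). With 1 library left out, members called for diet ran from 31 to 36, in males from 30 to 34 and in females from 22 to 31. The sex difference ran from 28 to 32 on control and from 9 to 13 on MCD, and the sex-by-diet difference from 6 to 11. Signs changed for Gsta3 with library totals (0.0245), for Sult1a1 over both sexes with the replicate block (-0.0091), for Ugt1a1 with library totals (0.148) and with summed exon bins (0.0859), and for Gstp2 in males with summed exon bins (1.10). To see whether replicate numbers pair libraries, the difference of male 1 from male 2 was correlated over 55 pairs of groups per tissue. Correlations ran from -0.43 to 0.33 in liver (median -0.0074), 7 over 0.1. In SCN they ran from -0.12 to 0.19 (median 0.0216), 13 over 0.1. Females and control CT8 were not in this check, and a pairing within single groups was not tested. In the fit with the replicate block 36 members were called for diet. With 1 library left out, calls were also lost for Ugt1a5 in males in 6 fits, for Sult1c2 in 7 and Gstm4 in 3 in females, and for Sult2a8 and Ugt1a6b between control sexes in 5 each. The fits with summed exon bins (34 libraries) and without MCD CT04 1 and CT12 2 were chosen after seeing the data. Members near 0.1 CPM or with all males at 0 carry few counts, and their differences were limited by that depth.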
